A study of Rattus norvegicus with 70 samples.

Results

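The 42 genes described here encode the enzymes of glycolysis, the carriers of glucose and lactate, and the enzymes that build, break down and regulate glycogen. They were chosen by gene symbol, not by their values, and all 42 had a row in each of the 6 tissue tables, out of 19441 gene entries per table. RNA was sequenced from 6 tissues (adipose tissue, adrenal gland, hypothalamus, liver, lung and muscle) of male Wistar-Kyoto rats, an inbred strain. Control groups were exposed to air and treated groups to 0.8 ppm ozone, an oxidant gas, for 4 h. There were 68 libraries: hypothalamus, liver and lung had 6 air and 6 ozone libraries each, adipose tissue had 5 of each, adrenal had 5 air and 6 ozone, and muscle had 6 air and 5 ozone.

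Glycolysis splits glucose into pyruvate. Glucose enters through carriers of the SLC2A family, hexokinase traps it as glucose 6-phosphate, and phosphofructokinase commits it to the pathway under the control of fructose 2,6-bisphosphate, which the PFKFB enzymes make and remove. Pyruvate is then reduced to lactate or oxidised in mitochondria, which the pyruvate dehydrogenase kinases restrain. Glycogen, the stored form of glucose in liver and muscle, is made by glycogen synthase and cut by glycogen phosphorylase, and regulatory subunits of protein phosphatase 1 (the PPP1R3 family) bind it and favour synthesis.

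The values below are the authors' normalised values, which are gene read counts divided by 1 size factor per library, with each tissue scaled apart. The libraries held 8854272 to 18848151 recovered reads. Differences are ozone minus air on the log2(value + 1) scale, given ± their standard error from limma, a scale that understates the change of genes with low values. A gene is said to have risen or fallen where limma's Benjamini-Hochberg adjusted p over all genes tested in the tissue was under 0.05, and genes with a mean value under 10 in a tissue were not tested there. The labels number the libraries but do not say that each came from another rat, so p-values reflect only how these libraries vary, which may be partly technical. In whole tissue, fewer cells of a type and less RNA per cell cannot be told apart.

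The tissue isoforms were found where the tissue labels place them. As recovered reads scaled to a common library total (RPM) in the air libraries, the liver glucose carrier Slc2a2 had 426 ± 74.3 (SD, n = 6) in liver and at most 3.19 as the mean of any other tissue. The liver pyruvate kinase Pklr had 109 ± 35.5 in liver and at most 0.730 elsewhere. The muscle phosphorylase Pygm had 7505 ± 1669.8 (SD, n = 6) in muscle, and its next mean, 220.0 ± 359 (SD, n = 5) in adipose tissue, had an SD larger than the mean. The brain aldolase Aldoc had 467 ± 82.3 (SD, n = 6) in hypothalamus and at most 4.83 elsewhere. Gapdh, usually among the most abundant transcripts of a cell, had a mean of at most 2.08 RPM in any tissue, and Eno1 had 3.22 to 32.0. The counting of both is uncertain here, since reads shared with near-identical copies can be lost.

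The response to ozone was broad in muscle, partial in lung, liver and adrenal, and came to a single gene in hypothalamus and in adipose tissue. In lung 5 of 40 tested members rose and 3 fell, against 9.51% of all genes risen and 8.18% fallen. In liver 7 of 35 rose and 1 fell, against 6.74% and 4.72%. In adrenal 4 of 38 rose and 3 fell, against 9.23% and 9.38%. In hypothalamus 1 of 38 rose and 0 fell, against 0.789% and 0.624%. In adipose tissue 1 of 40 rose and 0 fell, against 3.87% and 3.45%. In muscle 20 of 39 rose and 10 fell, against 21.6% and 22.1%. The members' shares of 12.5% risen and 7.5% fallen in lung, and 10.5% and 7.89% in adrenal, were near those of all genes, whereas 20.0% rose in liver and 51.3% in muscle. The counts of 0 fallen members from limma were also 0 in edgeR and DESeq2, and 2 members in hypothalamus and 0 in adipose tissue were lower at an unadjusted p under 0.05. The median difference over the tested members was 0.55 in muscle and between 0.05 (liver) and 0.13 (adrenal) in the others, where the median of all genes was at most 0.02.

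Of 230 tests of a member in a tissue 55 passed. Muscle was the only tissue with a change for 17 members, and 7 (Slc2a2, Slc2a3, Pfkl, Aldoc, Pklr, Pdk3 and Gys2) passed in none. Over all genes, too, the shares called were highest in muscle, at 21.6% risen and 22.1% fallen. The matching counts across tissues over all genes are not given here, so these counts are a description of the members.

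**Figure D1:**
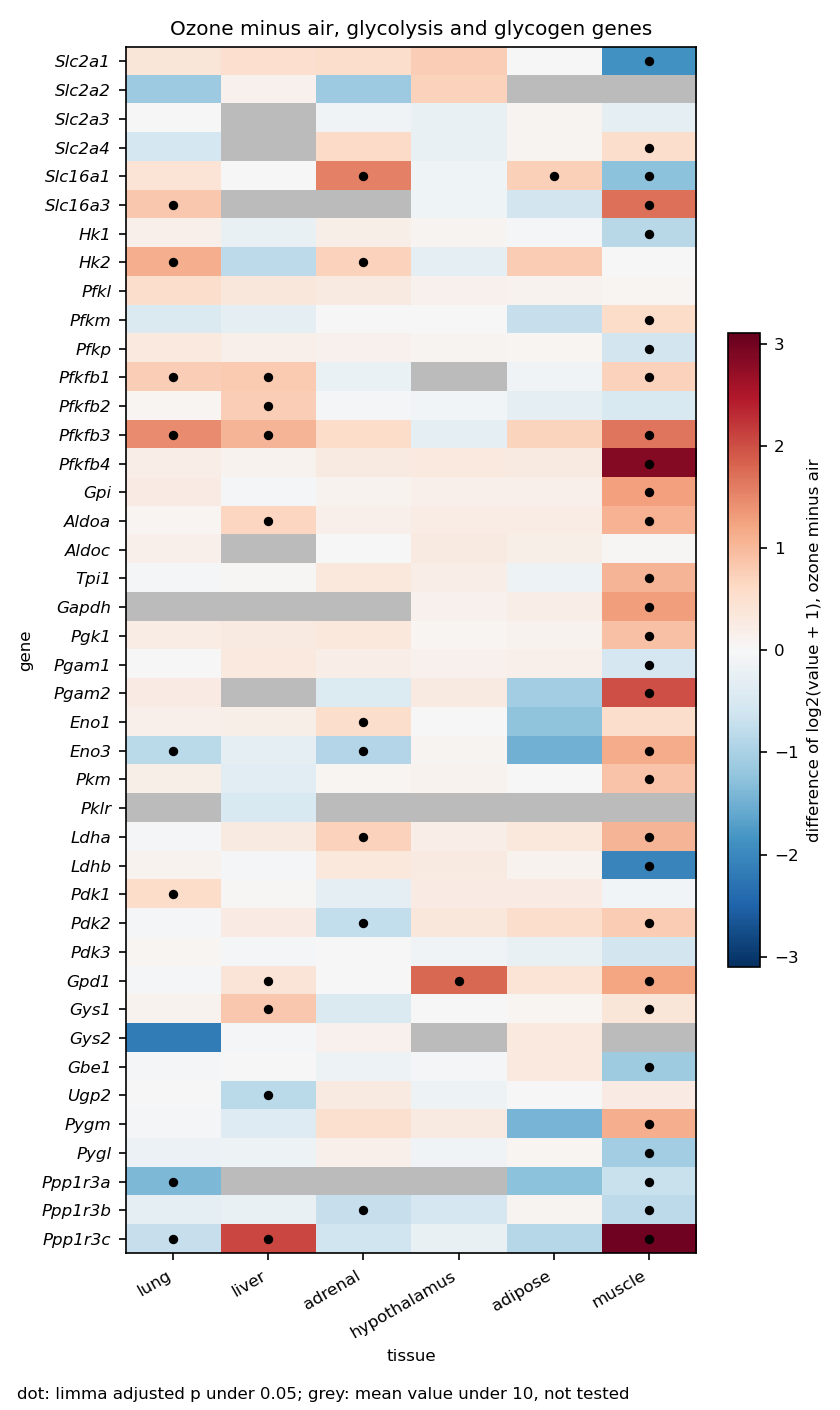
Difference of log2(value + 1), ozone minus air, for each of the 42 genes (rows) in 6 tissues (columns), red where higher and blue where lower after ozone. Dots mark the 55 tests with limma adjusted p under 0.05 and grey marks genes under the minimum mean, and the muscle column holds the most dots, 20 for genes that rose and 10 for genes that fell.

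Some libraries stood apart in markers of other cell types. In muscle all 7 measured fast and general skeletal muscle markers rose, with summed values of 1312586 to 2367109.5 in air and 3302898 to 5571889 after ozone, and all 6 slow-fibre markers fell, with sums of 119219 to 746677 in air and 6143 to 261355 after ozone. In adipose tissue the skeletal muscle markers summed to 238602 in air 2, 37169 in air 5 and 34346 in ozone 16, and to 893 to 13751 in the other 7 libraries. In lung the cardiac markers summed to 5082 in air 1 and 7807 in air 2, against 158 to 1634 in the rest, and air 10 had 8195 of adipocyte markers, against 103 to 2530.5. The liver markers in lung summed to 20822 in air 8 and 14014.5 in air 2, against 1039 to 3683 in the rest. Other lung markers moved with the exposure. Of those tested, 4 of 5 for neutrophils fell, with sums of 792 to 1038 in air and 475 to 602 after ozone. So did 3 of 4 for B cells (highest in air 1 and air 2), 1 of 4 for T cells (Cd8a, by 1.03) and 1 of 4 for endothelium (Kdr, by 0.75). Of 4 macrophage markers Adgre1 (by 1.05) and Csf1r (by 0.27) fell and Mrc1 rose (by 0.55). Rises were also seen in 2 of 6 lung epithelial and 1 of 2 neuron markers (Syt1, by 1.90). In liver the lung markers reached 9042 in air 1 and 4878 in ozone 19, against 14.8 to 2259.7 in the rest. In adrenal the cortex markers were lowest in air 8 (192436) and ozone 16 (257572), against 294294 to 456281 in the rest. The liver markers in adrenal summed to 27096 in air 11 and 15868 in air 9, against 950 to 10282 in the rest. The lung markers in adrenal summed to 37.9 to 1056 in air and 192 to 4188 after ozone. In hypothalamus the liver markers summed to 6627 to 23805 in air and 7029 to 32671 after ozone. In adrenal 1 of 6 tested medulla markers rose with ozone (Th, by 0.99), as did 2 of 6 for adipocytes (Lep, 1.52, and Cidec, 1.23). Further rises were 1 of 3 for brown fat (Dio2, 2.15), 1 of 4 for endothelium (Kdr, 0.48) and 1 of 6 for lung (Ager, 1.84). Of the adrenal astrocyte markers 1 of 5 fell (Slc1a3, by 0.52), and of the oligodendrocyte markers 1 of 4 (Cnp, by 0.43). The part of these cell types in the lung, adrenal and hypothalamus results below was not tested. A further fit left out air 1 and air 2 in lung, air 1 and ozone 19 in liver, air 8 and ozone 16 in adrenal and the named 3 in adipose tissue. These were singled out after the data were seen, and they are what "the libraries that stood apart" means below. Lung air 8 and air 10 and adrenal air 9 and air 11 were kept, as were all hypothalamus libraries. In that fit adipose tissue had 0 members that rose and 0 that fell, adrenal 7 and 3, liver 8 and 2, and lung 6 and 2. The shares of all genes in that fit are not given here, so these counts cannot be set beside them.

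Glucose carriers moved in opposite directions in muscle. Slc2a1, the basal carrier GLUT1, had 122, 149 and 278 as its lowest, median and highest value in the muscle air libraries, and 36.9, 48.5, 52.9, 41.9 and 42.8 in the ozone libraries. Every ozone library lay below every air library, and the gene fell by 1.89 ± 0.21 on the log2 scale (limma adjusted p = 3.42e-05). Slc2a4, the insulin-responsive carrier GLUT4 of muscle and fat, rose there by 0.55 ± 0.14, also without overlap between the groups. In hypothalamus Slc2a1, the carrier of the blood-brain barrier, had 2958, 3691 and 5202 as lowest, median and highest value in air and 4477, 5804 and 12790.0 after ozone. The highest value was that of ozone 15 alone, 5 of 6 ozone libraries lay above all air libraries, and the difference of 0.76 ± 0.22 did not pass (limma adjusted p = 0.119), although it passed in DESeq2 and with array weights. Summed endothelial markers were 2176 to 3298 in air and 1080.3 to 3393 after ozone, with 1114 in ozone 15. Slc2a1 differed by 0.38 ± 0.14 in lung, 0.51 ± 0.25 in liver and 0.53 ± 0.32 in adrenal, none of which passed. Without air 1 and air 2 it passed in lung, at 0.55 ± 0.14 (limma adjusted p = 0.0211). It also passed in liver without air 1 and ozone 19, at 0.70 ± 0.18 (limma adjusted p = 0.0251). In adrenal it passed without air 8 and ozone 16, at 0.77 ± 0.10 (limma adjusted p = 0.000122).

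The lactate carriers changed in 4 tissues. Slc16a1 encodes MCT1, which carries lactate and pyruvate into and out of most cells, and Slc16a3 encodes MCT4, which exports lactate from glycolytic cells. In adrenal Slc16a1 had 714, 674, 2439.7, 1255 and 596 in the air libraries, and 2243, 2583 and 5414 as lowest, median and highest value after ozone. The highest value of each group came from air 8 and ozone 16, the libraries lowest in cortex markers, and 4 of 6 ozone libraries lay above all air libraries. It rose by 1.57 ± 0.35 (limma adjusted p = 0.00737), and by 1.72 ± 0.19 without those libraries. In adipose tissue Slc16a1 had 2322, 1654, 1971, 1681 and 1406 in air and 3340.4, 3153, 2721, 2674 and 3011 after ozone. The groups did not overlap and the gene rose by 0.74 ± 0.15 (limma adjusted p = 0.0102). Without the libraries high in muscle markers (air 2, air 5 and ozone 16) its difference was 0.79 ± 0.17 and did not pass (limma adjusted p = 0.0651).

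In muscle Slc16a1 fell instead, from 1540.4 to 2301 in air to 557 to 1043 after ozone, by 1.28 ± 0.17. Slc16a3 had 387, 714 and 1000.1 there as lowest, median and highest value in air and 2306, 1886, 2399, 2166 and 2413 after ozone. Its groups did not overlap and it rose by 1.71 ± 0.21 (limma adjusted p = 5.96e-05). In lung Slc16a3 had 44.2, 60.7 and 74.3 in air and 72.7, 113 and 128 after ozone, with 5 of 6 ozone libraries above all air libraries, and rose by 0.84 ± 0.16 (limma adjusted p = 0.00223).

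Hk2, the inducible hexokinase of insulin-sensitive and proliferating cells, rose in lung and adrenal. Its lung values were 247, 314 and 526 as lowest, median and highest in air and 654, 718 and 756 after ozone. The groups did not overlap, although air 2 stood above the other air libraries, and the rise was 1.12 ± 0.15 (limma adjusted p = 0.000122). In adrenal Hk2 had 559, 571, 758, 593 and 635 in air and 904, 1016 and 1231 as lowest, median and highest after ozone. It rose there by 0.73 ± 0.12 without overlap (limma adjusted p = 0.00116). In adipose tissue it had 2292, 1382, 2461, 2211 and 3148 in air and 4788, 4537, 2859, 2799 and 4591 after ozone. These groups overlapped and the difference of 0.78 ± 0.23 did not pass (limma adjusted p = 0.0623), but it passed in DESeq2, with array weights, and without air 12 or ozone 22. Liver, at −0.81 ± 0.32, and hypothalamus, at −0.31 ± 0.13, did not pass. In muscle Hk2 differed by 0.02 ± 0.13, while Hk1, the constitutive form, fell by 0.86 ± 0.15.

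The PFKFB enzymes, which set fructose 2,6-bisphosphate, changed in lung, liver and muscle, and the phosphofructokinase subunits in muscle alone. In muscle the subunit Pfkm of muscle rose by 0.57 ± 0.20 and the platelet subunit Pfkp fell by 0.57 ± 0.20, and each call held in 5 of 11 fits that left out 1 library. Pfkfb3, a form with high kinase activity, and Pfkfb1, the form of liver and muscle, each rose in lung, liver and muscle. Their promoters are shown because these genes rose in the same 3 tissues. Each window runs from 250 bases before to 50 bases after the gene's start (RefSeq, GRCr8): Pfkfb3 at chr17:71944683-71944982, plus strand, and Pfkfb1 at chrX:22941926-22942225, plus strand. Capitals mark, on either strand, ACGTG and GCGTG (cores bound by hypoxia-inducible factors), CACGTG (an E-box, which contains ACGTG on both strands), AGAACA (a glucocorticoid receptor half-site) and GTAAACA (a FOXO core).
Pfkfb3: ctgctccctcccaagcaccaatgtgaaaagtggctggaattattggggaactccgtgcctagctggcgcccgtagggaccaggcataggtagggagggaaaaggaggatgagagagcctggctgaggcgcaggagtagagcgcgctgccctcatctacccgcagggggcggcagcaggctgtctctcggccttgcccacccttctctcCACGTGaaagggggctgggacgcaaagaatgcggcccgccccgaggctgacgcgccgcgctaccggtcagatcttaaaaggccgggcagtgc
Pfkfb1: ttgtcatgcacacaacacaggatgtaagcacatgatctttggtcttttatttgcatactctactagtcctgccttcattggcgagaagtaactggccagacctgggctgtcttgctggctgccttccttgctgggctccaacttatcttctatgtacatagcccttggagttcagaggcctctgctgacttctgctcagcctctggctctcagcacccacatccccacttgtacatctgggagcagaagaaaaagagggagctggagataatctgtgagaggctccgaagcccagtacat
The Pfkfb3 window held 1 CACGTG, and the Pfkfb1 window held none of these motifs. Of 33469 promoter windows 6.42% held CACGTG, 19.3% ACGTG, 29.7% GCGTG, 20.7% AGAACA and 3.78% GTAAACA. Among 41 windows of the 37 members with an entry these shares were 12.2%, 46.3%, 46.3%, 14.6% and 2.44%. Also counted, but not in capitals, were GGGCGG (a GC box) and TGACG (a CRE core). The GC box was in 33.1% of all windows and 53.7% of the members' windows, and the CRE core in 21.2% and 19.5%. None of these shares was adjusted for the G and C content of the windows, and the differences were not tested.

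In lung Pfkfb3 had 909, 1185 and 1564 as lowest, median and highest value in air and 3014, 3296 and 3457 after ozone. The groups lay far apart and it rose by 1.47 ± 0.11 (limma adjusted p = 1.46e-06), the lowest adjusted p of any member in that tissue. In liver it had 33.0, 54.5 and 93.6 in air and 65.2, 118 and 188 after ozone. There 5 of 6 ozone libraries lay above all air libraries, and the rise was 1.06 ± 0.26 (limma adjusted p = 0.0165). In muscle Pfkfb3 went from 713 to 2405 in air to 3579 to 7289.7 after ozone, a rise of 1.66 ± 0.28. Adipose tissue (0.68 ± 0.26), adrenal (0.56 ± 0.28) and hypothalamus (−0.27 ± 0.11) did not pass. Without air 8 and ozone 16 adrenal Pfkfb3 passed, at 0.70 ± 0.23 (limma adjusted p = 0.0447).

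Pfkfb1 rose by 0.77 ± 0.25 in lung, 0.81 ± 0.22 in liver and 0.72 ± 0.16 in muscle. The lung call held in 3 of 12 fits that left out 1 library and the liver call in 6 of 12, and neither passed in edgeR. Pfkfb2, the form known from heart, rose in liver by 0.77 ± 0.22, a call that held in 5 of 12 such fits. Pfkfb4, a form known from testis, changed in muscle alone. It had 125, 145 and 169 there as lowest, median and highest value in air, and 878, 1015, 1105, 1112 and 1228 after ozone. The groups lay far apart and the rise was 2.84 ± 0.13 (limma adjusted p = 1.63e-08), against 0.10 to 0.30 in the other tissues.

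**Figure D2:**
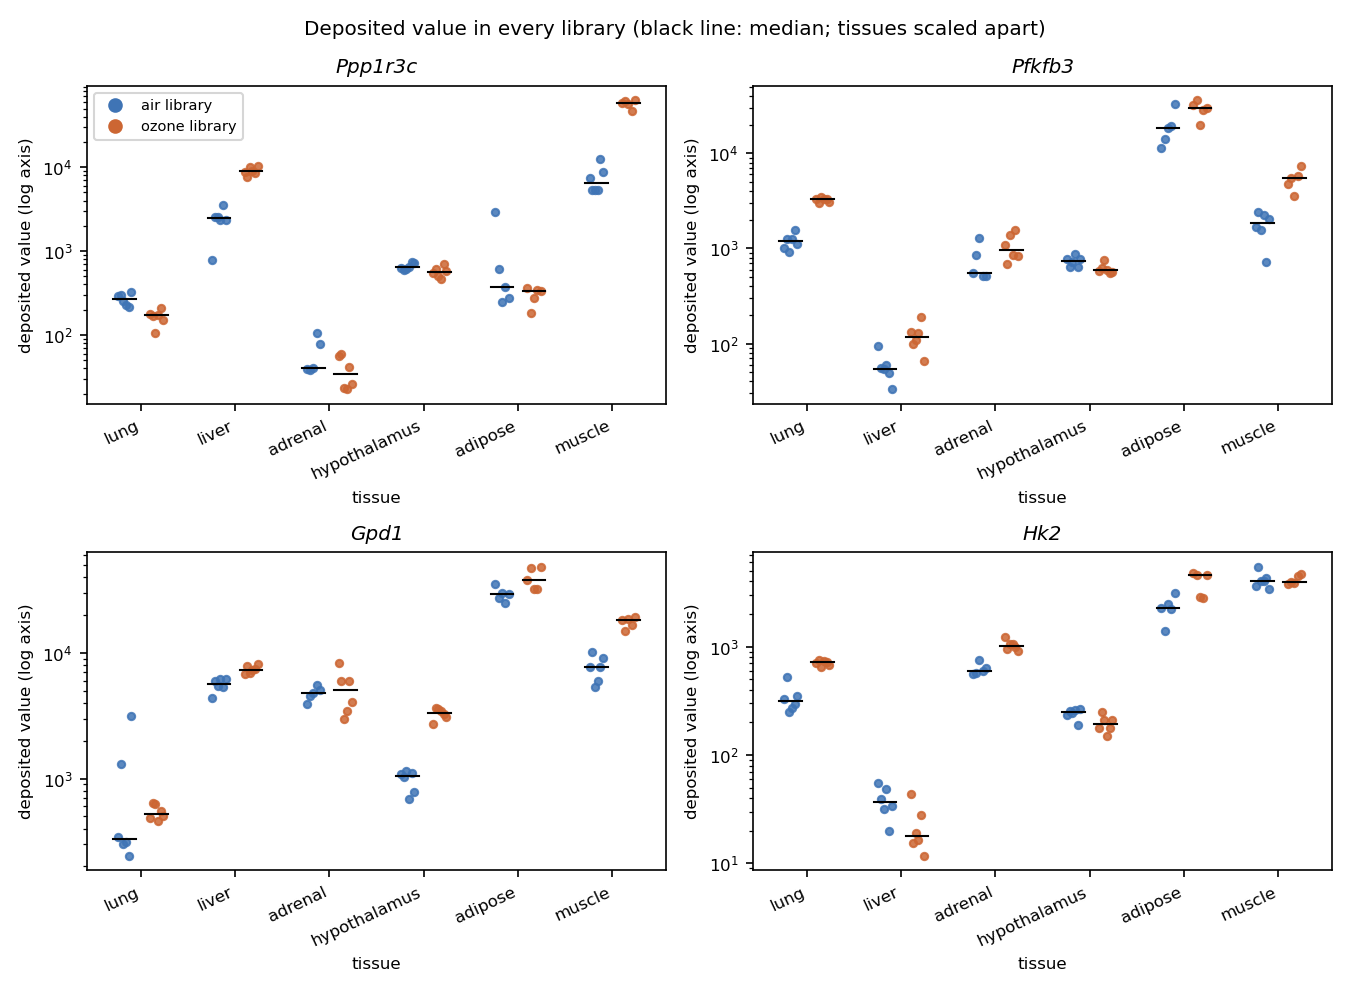
Deposited value of Ppp1r3c, Pfkfb3, Gpd1 and Hk2 in every library on a log axis, by tissue, with air in blue, ozone in orange and a black line at each median. Air and ozone do not overlap for Ppp1r3c in lung, liver and muscle, for Pfkfb3 in lung and muscle, for Gpd1 in liver, hypothalamus and muscle, and for Hk2 in lung and adrenal.

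Most of the remaining glycolytic enzymes rose in muscle. Among 11 tested glycolytic enzymes outside the hexokinase and phosphofructokinase steps, 8 rose and 1 fell, against 21.6% and 22.1% of all genes, and Gpi, Aldoa, Tpi1, Pgk1, Pgam2, Eno3 and Pkm rose by 0.87 to 1.99. In the same libraries the 7 skeletal muscle markers differed by 0.81 to 1.69, and the part of fibre makeup in these rises was not tested. Pgam2, the muscle phosphoglycerate mutase, had 3783, 5988 and 9612 as lowest, median and highest value in air and 32357, 16268, 27311, 22256 and 21085 after ozone. It rose by 1.99 ± 0.26 without overlap (limma adjusted p = 9.28e-05), while its general counterpart Pgam1 fell by 0.52 ± 0.18, a call held in 6 of 11 fits that left out 1 library. Gapdh, with the counting caution above, rose by 1.28 ± 0.40 from 14.0 to 63.6 in air to 40.8 to 133 after ozone, a call lost without ozone 24.

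Outside muscle these enzymes changed singly. In liver Aldoa, the muscle-type aldolase, had 367, 455 and 637 as lowest, median and highest value in air and 618, 719.9 and 1064 after ozone. The highest value came from ozone 18 alone, 5 of 6 ozone libraries lay above all air libraries, and the gene rose by 0.67 ± 0.15 (limma adjusted p = 0.0108). Eno3, the muscle enolase, had 65.7, 99.7 and 141 in lung in air and 44.0, 52.4 and 73.1 after ozone. With 5 of 6 ozone libraries below all air libraries it fell by 0.83 ± 0.20 (limma adjusted p = 0.00955). Without air 1 and air 2 its difference was −0.60 ± 0.19 and did not pass (limma adjusted p = 0.0569).

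In adrenal Eno3 had 83.1, 80.9, 76.5, 67.2 and 122 in air and 32.7, 47.8 and 51.3 as lowest, median and highest after ozone. The groups did not overlap and it fell by 0.90 ± 0.19 (limma adjusted p = 0.00493). Adrenal Eno1, with the counting caution above, rose by 0.54 ± 0.16, a call held in 5 of 11 fits that left out 1 library. Pklr, the pyruvate kinase of liver, had −0.48 ± 0.22 in liver (limma adjusted p = 0.205). Without air 1 and ozone 19 it fell by 0.67 ± 0.14 (limma adjusted p = 0.00769). In lung Pgam2 had 0.27 ± 0.29, and without air 1 and air 2 it passed at 0.73 ± 0.18 (limma adjusted p = 0.0181).

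The lactate dehydrogenase subunits parted in muscle. Ldha, the subunit of lactate-producing tissue, rose from 6209 to 16520.2 in air to 18746 to 26003 after ozone, by 1.06 ± 0.27. Ldhb, the subunit of oxidative fibres and heart, had 2323, 5503 and 8297 as lowest, median and highest in air and 642, 2281, 2113, 2813 and 247 after ozone, and fell by 2.06 ± 0.58 (limma adjusted p = 0.0124). Its lowest values, 247 and 642, were those of ozone 24 and ozone 13, whose slow-fibre sums were also lowest, at 6143 and 7095. In adrenal Ldha had 2553, 2177, 1239, 2659 and 2344 in air and 2565, 3493 and 4618 as lowest, median and highest after ozone, with 5 of 6 ozone libraries above all air libraries. It rose there by 0.70 ± 0.21 (limma adjusted p = 0.0314), a call held in 6 of 11 fits that left out 1 library.

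The pyruvate dehydrogenase kinases, which hold pyruvate back from oxidation, changed by isoform. Pdk1 had 96.2, 126 and 142 as lowest, median and highest in lung in air and 154, 176 and 241 after ozone. It rose by 0.58 ± 0.15 without overlap (limma adjusted p = 0.0134), and without air 1 and air 2 its difference of 0.49 ± 0.17 did not pass (limma adjusted p = 0.0732). Pdk2 had 108, 91.0, 81.3, 87.9 and 87.4 in the adrenal air libraries and 38.1, 55.9 and 63.8 as lowest, median and highest after ozone. It fell there by 0.76 ± 0.16 without overlap (limma adjusted p = 0.00561) and rose in muscle by 0.80 ± 0.15.

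Gpd1, which turns dihydroxyacetone phosphate into glycerol 3-phosphate, was the member that rose in hypothalamus. Its values there were 686, 1053 and 1149 as lowest, median and highest in air and 2732, 3351 and 3667 after ozone. The groups lay far apart and the rise was 1.78 ± 0.14 (limma adjusted p = 2.26e-05). Of 5 oligodendrocyte markers 0 passed in limma, with sums of 142216 to 200136 in air and 133824 to 232791 after ozone. In liver Gpd1 had 4369, 5702 and 6254 in air and 6850.0, 7311 and 8222 after ozone, without overlap. It rose by 0.41 ± 0.11 (limma adjusted p = 0.024), a call lost without ozone 14 or ozone 20. In muscle it had 5392, 7703 and 10226 as lowest, median and highest in air and 18341, 15038, 18531, 16514 and 19212 after ozone, and rose by 1.22 ± 0.16 (limma adjusted p = 0.000116), again without overlap. Adipose tissue, where its level was highest (1955 ± 184 RPM in air), had 0.42 ± 0.16 (limma adjusted p = 0.159).

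Ugp2 and Gys1, both of glycogen synthesis, moved in opposite directions in liver. Ugp2, which makes the UDP-glucose that glycogen synthase uses, had 3067, 3637 and 4490.1 as lowest, median and highest value in air and 1699, 2137 and 2823 after ozone. Every ozone library was below every air library, and it fell by 0.83 ± 0.14 (limma adjusted p = 0.00113). Gys1, the synthase of muscle and most other tissues, had 32.0, 52.2 and 70.4 in liver in air and 67.9, 92.7 and 115 after ozone. With 5 of 6 ozone libraries above all air libraries it rose by 0.83 ± 0.20 (limma adjusted p = 0.013), while Gys2, the liver synthase, differed by −0.04 ± 0.11. In muscle Gys1 rose by 0.38 ± 0.13, a call held in 8 of 11 fits that left out 1 library, and the branching enzyme Gbe1 fell by 1.10 ± 0.21. The muscle phosphorylase Pygm rose in muscle from 81924 to 165047 in air to 193344 to 283949 after ozone (1.12 ± 0.19), and the liver form Pygl fell there by 1.08 ± 0.27.

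Ppp1r3c, the glycogen-targeting subunit also called PTG, had the largest difference of any member in liver and in muscle, and it fell in lung. Its muscle values were 5284, 6404 and 12402 as lowest, median and highest in air and 58215, 61829, 56284, 47353 and 62514 after ozone. It rose there by 3.02 ± 0.21 (limma adjusted p = 1.11e-06). In liver it had 788, 2449 and 3572 in air and 7633, 8912 and 10393 after ozone, a rise of 2.07 ± 0.27 (limma adjusted p = 0.00018). The lowest liver value was that of air 1, and without air 1 and ozone 19 the rise was 1.79 ± 0.14. In lung it had 217, 271 and 326 in air and 105, 171 and 208 after ozone, a fall of 0.72 ± 0.15 (limma adjusted p = 0.00493). The groups overlapped in none of these 3 tissues. Adrenal (−0.62 ± 0.35), hypothalamus (−0.22 ± 0.11) and adipose tissue (−0.88 ± 0.60) did not pass.

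In air the level of Ppp1r3c was 494 ± 184 RPM in muscle, 162 ± 58.8 in liver, 57.9 ± 73.1 in adipose tissue, 55.8 ± 5.43 in hypothalamus, 22.3 ± 3.81 in lung and 5.74 ± 3.01 in adrenal (SD), and adipose tissue did not differ from hypothalamus beyond its spread. Its promoter (RefSeq, GRCr8, chr1:243878478-243878777, minus strand) was chosen for display after its values were seen, with the same motifs in capitals.
Ppp1r3c: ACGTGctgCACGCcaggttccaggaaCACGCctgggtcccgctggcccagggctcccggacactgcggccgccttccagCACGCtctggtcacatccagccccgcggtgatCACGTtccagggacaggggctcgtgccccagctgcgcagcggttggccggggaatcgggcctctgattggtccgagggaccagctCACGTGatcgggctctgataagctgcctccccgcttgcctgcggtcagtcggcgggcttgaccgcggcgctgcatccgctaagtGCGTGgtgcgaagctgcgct
It held 4 matches of ACGTG, including both strands of a CACGTG, and 4 of GCGTG, in a window with 69.0% G and C against a median of 51.7% over all windows.

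Ppp1r3b and Ppp1r3a fell in the tissues where they passed the test. Ppp1r3b, a glycogen-targeting subunit best known from liver, had 565, 582, 706, 621 and 408 in the adrenal air libraries and 283, 330.5 and 461 as lowest, median and highest after ozone. With 4 of 6 ozone libraries below all air libraries it fell by 0.71 ± 0.17 (limma adjusted p = 0.0112), and in muscle by 0.82 ± 0.20. Its liver difference was −0.23 ± 0.18. Ppp1r3a, the subunit of striated muscle, fell in muscle by 0.69 ± 0.18. In lung it fell by 1.40 ± 0.33 from 27.7 to 123 in air to 11.2 to 27.4 after ozone, with its highest value in air 2, and by 1.07 ± 0.26 without air 1 and air 2.

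In muscle, ozone 23 was the ozone library whose slow-fibre sum (261355) lay within the air range, although its fast and general muscle sum (4752700.0) was above that of all air libraries. Ozone 23 is among the libraries that the calls rest on, so its values are a description. Its Ppp1r3c value was 47353, its Pfkfb4 value 1112 and its Slc16a1 value 969, each beyond the air libraries. Of the called members, 17 of 20 that rose and 9 of 10 that fell were beyond all air libraries in ozone 23. Pfkm (102940), Pfkfb1 (1074), Gapdh (40.8) and Ldhb (2813) lay inside the air range.

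**Figure D3:**
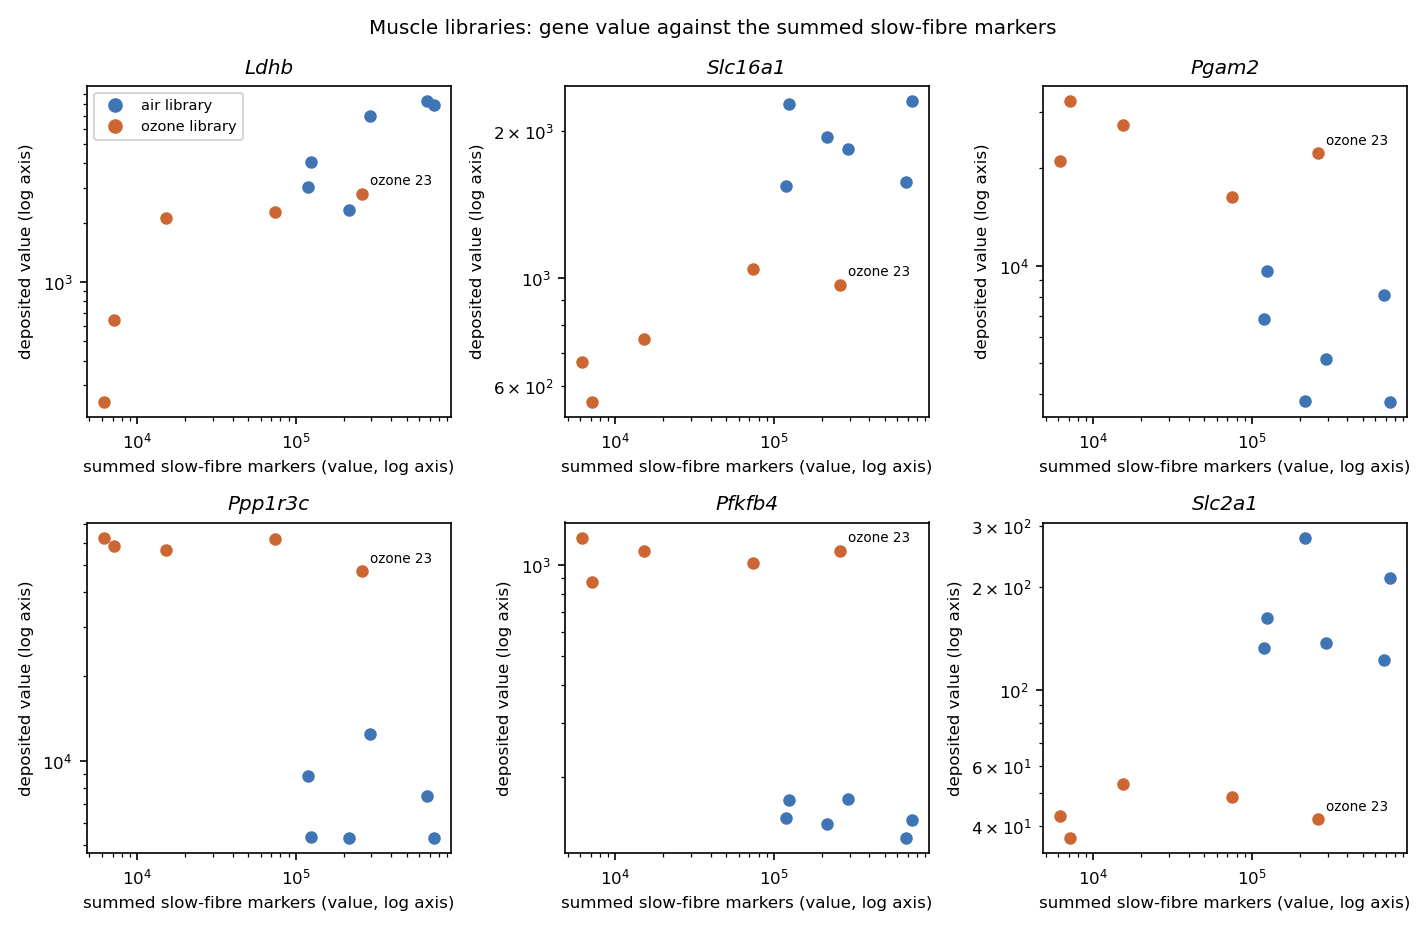
Value of 6 genes in each of 11 muscle libraries (y axis, log) against the summed slow-fibre markers of the same library (x axis, log), air in blue and ozone in orange. Ozone 23 lies at a slow-fibre sum of 261355, inside the air range, with Ppp1r3c (47353) beyond the air libraries and Ldhb (2813) inside their range.

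In adipose tissue the isoforms typical of muscle were highest in air 2, the library highest in muscle markers. Pygm had 13443, 2215, 248, 354 and 803 in air 2, 5, 6, 9 and 12 and 1864, 137, 316, 190.5 and 915 after ozone, and its difference of −1.44 ± 1.16 did not pass. Eno3 (6489.6), Pgam2 (1301) and Ppp1r3c (2950.1) were also highest of the air libraries in air 2.

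**Figure D4:**
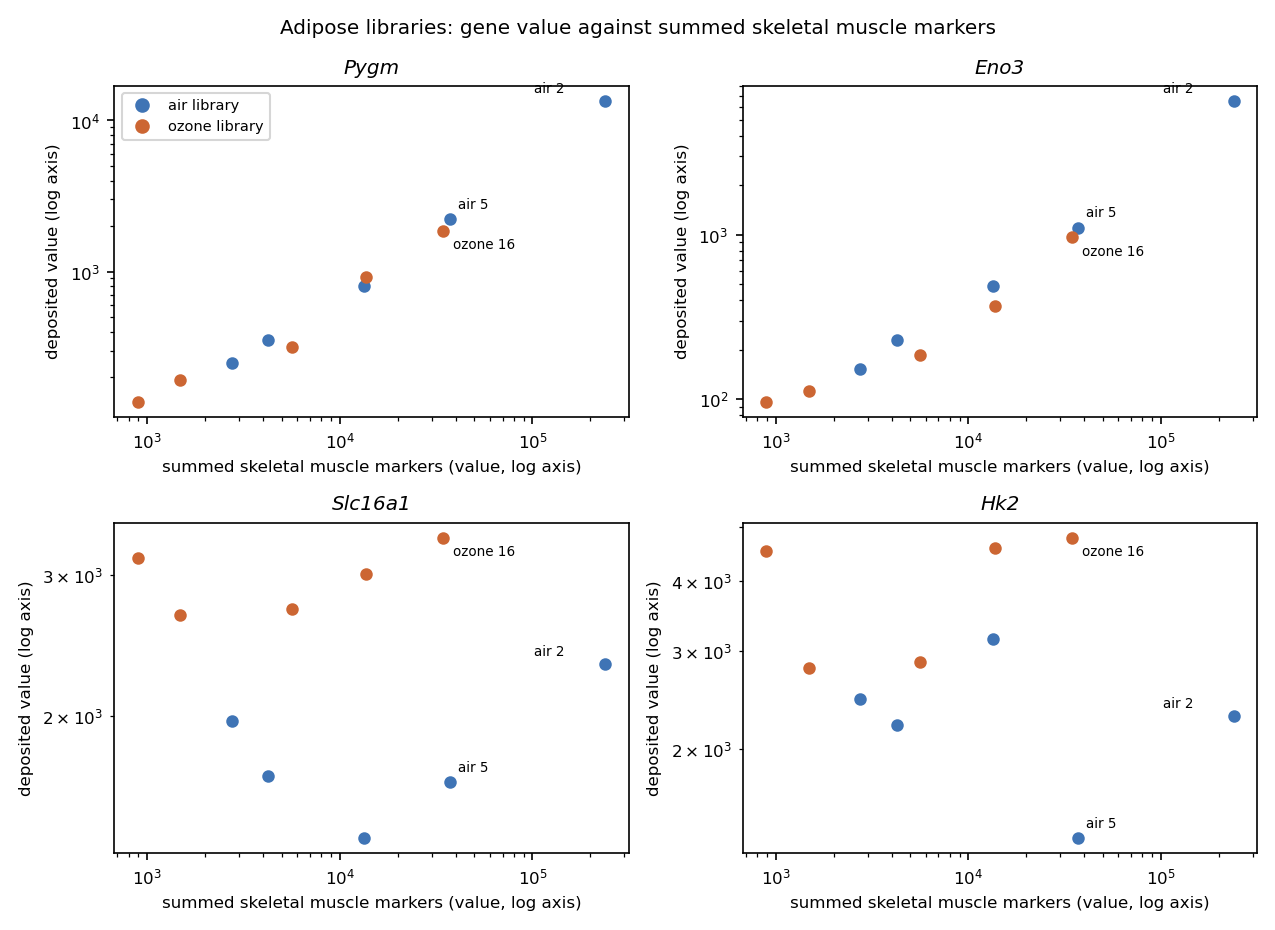
Value of Pygm, Eno3, Slc16a1 and Hk2 in each of 10 adipose libraries (y axis, log) against the summed skeletal muscle markers (x axis, log), air in blue and ozone in orange. Pygm and Eno3 are highest at the largest marker sum, that of air 2 (238602), whereas all 5 ozone libraries lie above all 5 air libraries for Slc16a1.

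Ratios between isoforms were taken within a library on values + 1, so the size factor enters only through the added 1, which matters most at low values. Of 12 pairs, 65 ratios in a tissue had both genes at a mean of at least 10, and 17 differed between exposures by a two-sided exact permutation test adjusted over all 65. Muscle held 8 of its 11, lung 5 of 12, liver 2 of 8 and adrenal 2 of 11, whereas hypothalamus (11 ratios) and adipose tissue (12) held 0, with 2 each at an unadjusted exact p under 0.05. The smallest unadjusted p the exact test allows is 0.00216 with 6 or 5 against 6 libraries and 0.00794 with 5 against 5. The largest differences were in muscle, where Ldha over Ldhb rose by 3.12, Slc16a3 over Slc16a1 by 2.99 and Pgam2 over Pgam1 by 2.52, and Slc2a1 over Slc2a4 fell by 2.44 (exact adjusted p = 0.0141 each). In lung Pfkfb3 over Pfkfb2 rose by 1.40, Pfkl over Pfkm by 0.99 and Hk2 over Hk1 by 0.97, and Eno3 over Eno1 fell by 0.98. The counting caution on Eno1 applies to that last ratio. Lung Eno3 alone did not pass without air 1 and air 2 (limma adjusted p = 0.0569). In liver Gys2 over Gys1 fell by 0.87 and Pfkl over Pfkm rose by 0.67, although neither phosphofructokinase subunit passed alone in lung or liver. The muscle ratio of Hk2 to Hk1, which rose by 0.88, was 0.85 to 0.89 without ozone 13, 16, 23 or 24, at exact adjusted p of 0.0516 to 0.0546 with 4 ozone libraries.

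**Figure D5:**
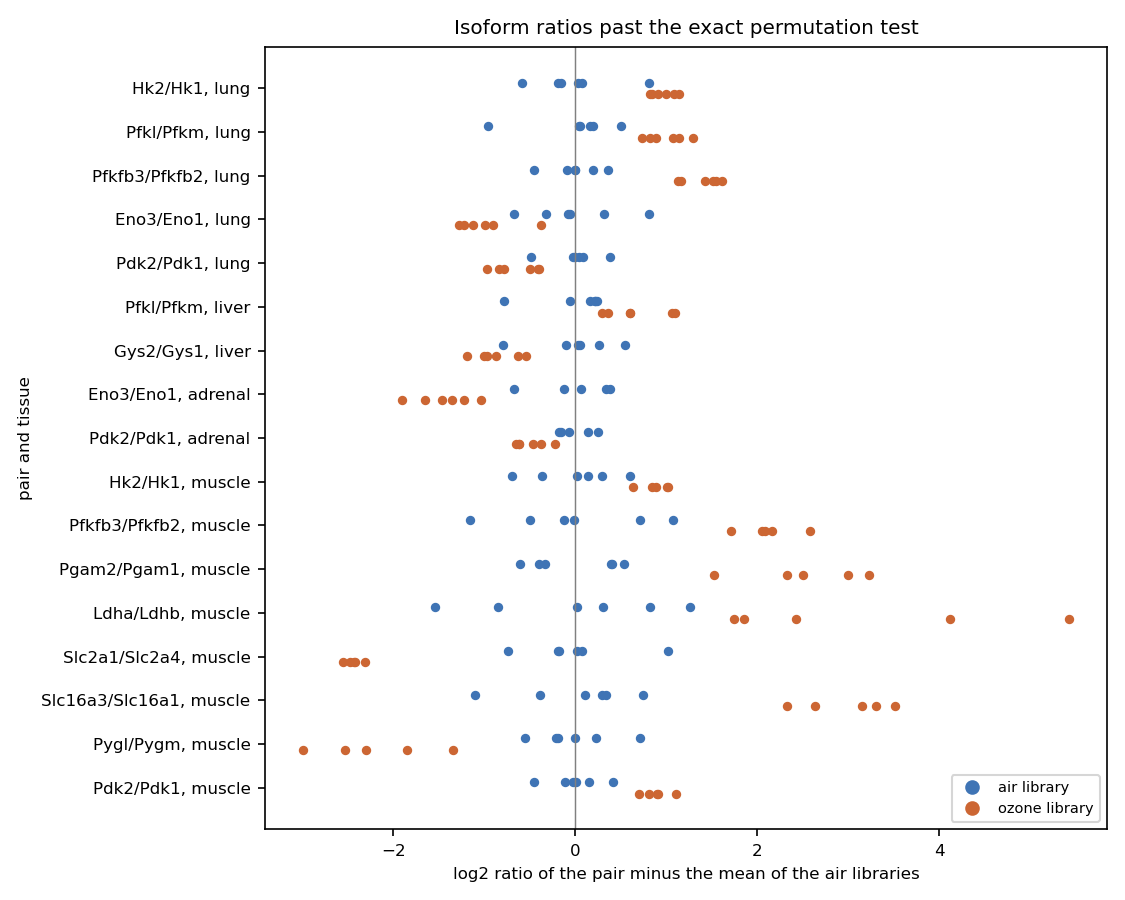
Log2 ratio of each isoform pair in each library minus the mean of the air libraries (x axis), for the 17 pairs and tissues past the exact permutation test (rows), air in blue and ozone in orange. The largest mean difference is that of Ldha over Ldhb in muscle, at 3.12.

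The difference of the response between tissues was tested directly in 31 members with a mean of at least 10 in all 6 tissues. A limma F test of the 5 interaction terms passed 25 of them, against 41.9% of all genes tested. With muscle left out 10 of 31 passed, against 23.1% of all genes in that fit. The lowest adjusted p values were those of Pfkfb4 (5.41e-14), Ppp1r3c (1.18e-11), Slc16a1 (2.96e-08), Hk2 (1.07e-07), Slc2a1 (1.24e-07) and Pdk2 (1.47e-07). Without muscle, Hk2 (9.79e-07), Ppp1r3c (6.67e-06), Pdk2 (1.51e-05) and Slc16a1 (0.000757) still passed, whereas Pfkfb4 (0.975) and Slc2a1 (0.589) did not. Ppp1r3c, Slc16a1, Pdk2 and Eno3 were the 4 members called in both directions in different tissues.

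Of 55 other genes of these pathways 53 were in the tables. Muscle had 19 and 9 of 45 that rose and fell, lung 9 and 5 of 49, adrenal 2 and 7 of 48, liver 4 and 3 of 49, adipose tissue 4 and 0 of 49 and hypothalamus 0 and 1 of 50. Over all genes the shares risen and fallen were 21.6% and 22.1% in muscle, 9.51% and 8.18% in lung, 9.23% and 9.38% in adrenal, 6.74% and 4.72% in liver, 3.87% and 3.45% in adipose tissue and 0.789% and 0.624% in hypothalamus. In liver Stbd1, which tethers glycogen to membranes, fell by 1.81 ± 0.22 and Ppp1r3g, a further glycogen-targeting subunit, rose by 2.58 ± 0.45. In muscle Bpgm, which makes 2,3-bisphosphoglycerate, rose by 1.37 ± 0.16, the phosphorylase kinase subunits Phkb and Phkg1 by 1.18 ± 0.14 and 1.27 ± 0.16, and Stbd1 by 1.43 ± 0.18. In adipose tissue the phosphorylase kinase subunit Phka2 rose by 2.68 ± 0.40, the fructose carrier Slc2a5 by 1.30 ± 0.20 and Pdk4, the fasting-induced pyruvate dehydrogenase kinase, by 1.74 ± 0.39. In lung the carrier Slc2a10 rose by 1.16 ± 0.13 and Txnip, which removes glucose carriers from the membrane, by 0.60 ± 0.09. Adpgk, which phosphorylates glucose with ADP, fell in adrenal by 0.91 ± 0.10 and in hypothalamus by 0.38 ± 0.08.

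A fixed list of 17 genes held regulators of these genes and related genes, such as Fkbp5 and Arrdc4, that are not themselves known as such regulators. Of the 17, 6 rose and 2 fell in muscle, 4 and 0 in lung, 4 and 2 in adrenal and 4 and 1 in liver. In adipose tissue 4 and 2 of 17 rose and fell, and in hypothalamus 1 and 1. The shares of all genes given for the pathway genes apply here too, from 21.6% risen and 22.1% fallen in muscle to 0.789% and 0.624% in hypothalamus, and 17 genes are few to set beside them. Fkbp5, a glucocorticoid-induced gene, rose in all 6 tissues, by 2.94 ± 0.32 in lung, 2.86 ± 0.19 in liver, 0.60 ± 0.14 in adrenal, 1.90 ± 0.20 in hypothalamus, 1.81 ± 0.28 in adipose tissue and 2.75 ± 0.35 in muscle. Foxo1, a transcription factor that insulin signalling keeps out of the nucleus, rose in liver (1.97 ± 0.25), adipose tissue (1.26 ± 0.18) and muscle (2.97 ± 0.15). Ppargc1a, a coactivator of fasting genes, rose in liver by 2.88 ± 0.29. Hif1a, the hypoxia-inducible factor that drives many glycolytic genes, fell in muscle by 1.04 ± 0.14, whereas Epas1, which encodes the related factor HIF-2alpha, rose in lung (0.38 ± 0.09), liver (0.51 ± 0.15), adrenal (0.66 ± 0.12) and adipose tissue (0.63 ± 0.17). Fkbp5 in adrenal, Epas1 in liver and the genes given after Myc below were named after their values were seen. Myc, another activator of glycolytic genes, rose in lung by 1.17 ± 0.13, in adrenal by 0.60 ± 0.13 and in adipose tissue by 0.84 ± 0.16. Srebf1 fell in adrenal (0.66 ± 0.11) and adipose tissue (1.40 ± 0.36) and rose in muscle (0.84 ± 0.25). Nr3c1 fell in liver (0.87 ± 0.25), adipose tissue (0.79 ± 0.22) and muscle (0.53 ± 0.16). Arnt fell in adrenal (0.54 ± 0.15) and Mlxipl in hypothalamus (0.82 ± 0.17). The other rises were Arrdc4 in lung (0.61 ± 0.09), Mlx in adrenal (0.44 ± 0.10), and Egln1 (0.85 ± 0.18), Esrra (0.82 ± 0.18) and Mlxip (0.67 ± 0.16) in muscle.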

How the data were processed

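RNA-seq of 6 tissues gave 68 libraries with a column of values, and the adrenal air 7 and muscle ozone 17 libraries were not analysed here. Libraries were grouped by tissue and exposure from the labels. The deposited signal values are gene read counts that the authors divided by 1 size factor per library, with a separate table for each tissue. All values above 0 were whole multiples of 1 read within a tolerance of 0.01, which gave back whole reads per library. Per the submitters' processing notes, Partek, DESeq2 and the rat build rn6 were used. For the aligner, the read counting, strand handling and annotation release: not given in the sources used here. Each table had 19465 entries, of which 24 were dates in place of gene names and were left out.

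Values were tested with limma 3.58.1 in R 4.3.3 (trend and robust settings) on log2(value + 1), for genes with a mean of at least 10 in the tissue, ozone against air within a tissue, with Benjamini-Hochberg adjustment over all genes tested and a threshold of 0.05. Differences between tissues used an F test of the interaction terms, and isoform ratios an exact permutation test. Within a tissue air and ozone libraries share no number, so nothing was paired. The fits were tested on simulated data.

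Per-library values are given, in each tissue, for up to 6 called members whose mean was 50 or more, lowest adjusted p first, and for the 2 with the lowest p where fewer than 2 passed. Promoters are those of members called in the same direction in at least 3 tissues, from RefSeq (GRCr8), which has no entry here for Gpd1. The promoter of Ppp1r3c falls outside that rule and was added after its values were seen. The members, lists and rules were chosen with earlier results of these data known. Alternatives were edgeR 4.0.16 and DESeq2 1.42.0 on the recovered reads, a pseudocount of 10, no filter, a minimum mean of 50, TMM scaling, array weights, each library left out, and a replicate block. Leaving out the libraries that stood apart in marker genes was chosen after seeing the data.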

Additional observations from a re-analysis of the deposited data

Results flagged for a closer look

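Of 56 groups of libraries checked for members with values in every library, 5 held 1 library far from the others, and chance gives about 1 in 20. Hk2 in lung was 526 in air 2. Aldoa in liver was 1064 in ozone 18. Eno3 in adrenal was 122 in air 11. Slc16a1 in adrenal was 5414 in ozone 16. Slc2a1 in hypothalamus was 12790.0 in ozone 15.

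The ozone response differed between the 6 tissues, by the limma F test, for Pfkfb4 (adjusted p = 5.41e-14), Ppp1r3c (adjusted p = 1.18e-11), Slc16a1 (adjusted p = 2.96e-08), Hk2 (adjusted p = 1.07e-07), Slc2a1 (adjusted p = 1.24e-07) and Pdk2 (adjusted p = 1.47e-07). Without muscle, Pfkfb4 (adjusted p = 0.975) and Slc2a1 (adjusted p = 0.589) did not pass.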

How the results depend on the processing

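For 57 results of single genes, of which all but Slc2a1 in hypothalamus and Hk2 in adipose tissue had passed, 1066 values under alternatives were computed: 997 kept their direction and side of the threshold, 63 no longer passed, 6 newly passed and 0 changed direction. Since nearly all had passed, these counts say little about gains, and without the libraries that stood apart 7 further tests of a member passed. With array weights 9 members rose in lung, 7 in adrenal, 3 in hypothalamus and 3 in adipose tissue, and 2 fell in liver. With DESeq2 8 rose in adrenal, 2 in hypothalamus and 3 in adipose tissue, and 5 fell in lung. DESeq2 also called more of all genes than limma did. Risen were 1639 against 1294 in adrenal, 286 against 120 in hypothalamus and 837 against 551 in adipose tissue. Fallen in lung were 1655 against 1213. Without the libraries that stood apart, 2 fell in liver, 7 rose in adrenal and 0 rose in adipose tissue. Leaving out each library in turn gave 4 to 8 risen in lung (8 without air 10), 4 to 8 in liver (4 without ozone 14 or ozone 20), 2 to 6 in adrenal (2 without air 6, ozone 14 or ozone 15), 1 to 3 in adipose tissue (3 without air 12) and 17 to 20 in muscle. It gave 1 to 2 fallen in liver (2 without air 1 or ozone 13), 3 to 4 in lung and in adrenal and 8 to 11 in muscle, and 16 to 18 isoform ratios. The difference between tissues passed 10 members without muscle. For array weights and the fits with libraries left out, the matching counts over all genes are not given here. Those member counts therefore have no share of all genes beside them. The cause of these shifts was not tested.

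With a replicate block on the library number across tissues the F test passed 25 members, as without it (consensus correlation 0.00236). Of 90 pairs of same-numbered libraries from different tissues 34 had a correlation of deviations above 0.1, with a median of 0.01, so the numbers were not taken as pairs.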
